A study of Mus musculus with 16 samples.

Results

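Regulatory T cells (Treg cells) that lack Atg7 were compared with and without rapamycin, over every gene that the array names by a single symbol. The members of the comparison are 8 of the 16 arrays of the series, 4 of Atg7-/- Treg cells from rapamycin-treated mice and 4 of Atg7-/- Treg cells from untreated mice. Both groups came from C57BL/6 mice labelled Atg7fl/flFoxp3-Cre, in which a Cre recombinase under the control of Foxp3 removes the floxed Atg7 segment in cells that express Foxp3. Rapamycin was given into the peritoneum, 4 mg per kg of body weight on each of 5 days; the labels call the other mice untreated and name no vehicle injection. The sort took CD4+Foxp3-YFP+ lymphocytes of the spleen and peripheral nodes. In every group the sorted cells were stimulated through CD3 and CD28 for 4 h before RNA was taken. The other 8 arrays hold Treg cells of Atg7+/flFoxp3-Cre mice (written Atg7+/-) with the same 2 treatments, 4 arrays each, and serve for comparison. Of 41345 probe sets, 23521 carried 1 gene symbol and stood for 22180 genes, taking the brightest probe set of a gene. Of these genes, 16760 reached a mean log2 signal of 3.549 in at least 1 of the 4 groups and were tested. Olfactory and vomeronasal receptor genes (symbols starting Olfr or Vmn), which T cells are not known to use, served as the reference against which changes were read.

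Rapamycin binds FKBP12 and inhibits mTOR complex 1, a kinase complex that promotes ribosome production, glycolysis, lipid synthesis and cell cycle entry when nutrients and growth signals are present. The same complex holds back autophagy by phosphorylating the Ulk1 and Atg13 initiation complex, and it restrains transcription factors of starvation and rest. Atg7 is the E1-like enzyme that activates Atg12 and the Atg8 family (LC3 and GABARAP proteins), so cells without it cannot complete this conjugation. In Treg cells mTOR complex 1 is known to support the activated, effector state, and autophagy is known to support their survival and stability.

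Pearson correlations between arrays of the same Atg7-/- group ran from 0.980 to 0.994 over the genes tested. On the first principal component of the 8 Atg7-/- arrays, with 42.9% of the variance, rapamycin and untreated arrays were on opposite sides. The second component, with 18.6%, set rapamycin replicate 1 (score 21.3) and rapamycin replicate 3 (score -30.6) apart from the other 6 arrays, which had scores between -2.25 and 3.89. The root mean square deviation from the group mean was 0.214 and 0.242 on these 2 arrays and 0.150 to 0.188 on the other 6. Whether each replicate was its own mouse is not given in the labels; if they were not, the p-values reflect technical spread.

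With rapamycin, 1480 genes were higher and 1867 lower in Atg7-/- Treg cells at an adjusted p under 0.05 (limma, all 16 arrays in 1 fit, two-sided, Benjamini-Hochberg adjustment over 16760 genes; such genes are called below). These are 8.83% and 11.1% of the genes tested, 20% together, and the median log2 change of all genes was -0.04. With only the 8 Atg7-/- arrays in the fit, 2247 genes (13.4%) were called. Most changes were small: 73 genes rose and 75 fell by a factor of 2 or more, and the median standard error (SE) of a log2 change was 0.12. Centring the arrays on the receptor genes instead moved the split from 44.2% to 29.7% of calls being higher (1129 higher, 2677 lower). For 3418 genes (20.4%) the 4 rapamycin and the 4 untreated arrays did not overlap. Called genes were more frequent among bright genes, from 8.40% of genes other than receptors at levels below 4 to 27.1% at levels from 7 to 8. Because the samples are bulk RNA, fewer cells of a kind and less RNA per cell cannot be told apart.

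The receptor genes did not form a set without change. Of 1394 with a row, 1108 were too dim to be tested. Among the 286 tested, 30 were called higher and 33 lower, which is 22.0% against 20.3% of named genes outside the receptor, microRNA, small RNA and predicted classes. Among the genes tested, a call alone therefore did not set a gene apart from the reference. Only receptor genes that passed the filter on dim signal are in this share. With no filter, 8.75% of all 1394 were called, against 14.8% of all 22180 genes. Olfr726 showed 3.70, 4.19, 4.49 and 3.91 log2 units on the untreated and 6.82, 6.83, 6.26 and 6.43 on the rapamycin arrays, a rise of 2.51 (SE 0.21, adjusted p = 1.79e-06 in limma). Its groups lay far apart, and in the other genotype the rise was 2.44 (adjusted p = 8.55e-06). Olfr584 rose by 1.61, while Olfr310 and Olfr331 changed by -1.89 and -1.61; all 3 were also called in the same direction in Atg7+/- cells. Of the 63 called receptor genes, 33 (52.4%) were called in the same direction in the Atg7+/- arrays, which are separate samples, and 206 of all 286 (72.0%) had the same sign in both genotypes. What these probe sets hybridise to was not tested.

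The size of the changes in receptor genes gave a stricter mark. Their median change, in either direction, was 0.22, and 95% changed by less than 0.995 and 99% by less than 1.61 on the log2 scale. The genes on either side of the 95% mark were Olfr767, with 1.00, and Vmn1r103, with -0.99. Beyond that mark, a 1.99-fold change, lay 153 called genes, 0.913% of those tested, with 76 higher and 77 lower. Without untreated replicate 3 the count was 101, against the mark as given by the receptor genes in that fit. The mark depends on the filter. With no filter on dim genes it was 0.525, and 1291 called genes lay beyond it. Among genes above the median of all values it was 1.57, and 26 lay beyond it. Of the 153 genes, 15 were receptor genes, 48 higher and 63 lower were named genes outside the receptor, RNA and predicted classes, and the rest were microRNA, small RNA or predicted genes. Signal level matters here, because receptor genes were dim: their higher group mean had a median of 4.12 and reached 6.48 at the 95th percentile. The mark rests on few receptor genes at the levels of most immune genes; 20 lay between 6 and 7, where their 95th percentile was 1.66. At every level up to 7, receptor genes were called more often than other genes, for example 19.8% against 8.40% below 4.

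**Figure D1:**
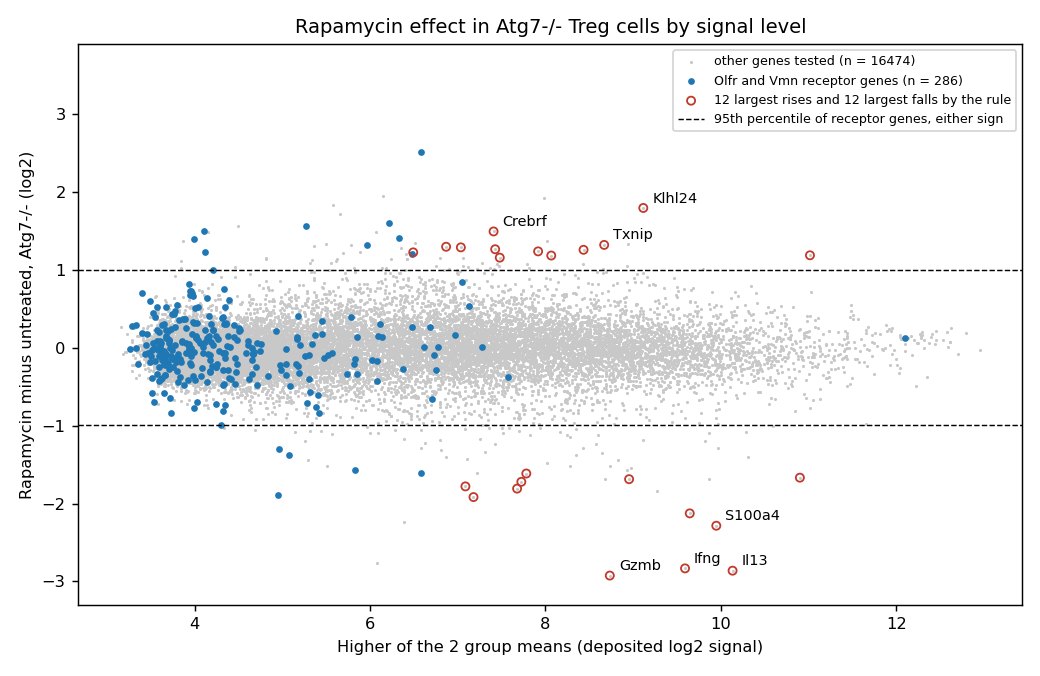
Change with rapamycin in Atg7-/- Treg cells (vertical axis, log2, rapamycin minus untreated) against the higher of the 2 group means (horizontal axis, deposited log2 signal) for all 16760 genes tested. Receptor genes (blue) crowd at low signal and reach 2.51 and -1.89; the ringed genes, the 12 rises and 12 falls named by the rule, lie beyond the dashed lines at a change of 0.995 up or down and at higher signal than most receptor genes.

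Atg7 itself gave 6.41, 6.44, 6.62 and 6.05 on the untreated and 6.73, 6.59, 6.02 and 6.59 on the rapamycin arrays, which overlap (change 0.10, SE 0.13, adjusted p = 0.635). The change in Atg7 was -0.01 without untreated replicate 4 and 0.25 without rapamycin replicate 3. It had a mean of 6.66 in untreated Atg7+/- cells, so the probe set still gave signal in Atg7-/- cells. The files do not place the probes relative to the floxed segment, so this value does not check the deletion. Foxp3, the lineage factor of Treg cells, was bright in all arrays, at 10.94, 11.04, 10.91 and 10.53 without and 11.07, 11.02, 10.84 and 11.05 with rapamycin, and was not called (change 0.14, adjusted p = 0.346; 0.03 without untreated replicate 4). Il2ra, the high-affinity IL-2 receptor chain, had means of 12.10 and 12.06. The Treg identity of the sorted cells was thus visible on every array. Of the 7 identity markers, Tnfrsf18 (GITR, 0.26) rose, and Cd4 (-0.75), Ctla4 (-0.37) and Cd3e (-0.35) fell (57.1% called against 20% of all genes). The change in Ctla4 was -0.25 without rapamycin replicate 1, and its call was lost without rapamycin replicates 1 and 3 together, and that of Cd3e without untreated replicate 2 or 3.

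Of 10 tested genes shared with conventional T cells, 3 rose (Ccr7, Lef1, Il7r) and 4 fell (Themis, Thy1, Cd40lg, Actn1). Called were 70%, against 20% of all genes. Markers of more distant cells were dim. Of 6 plasma cell genes Pou2af1 fell and Mzb1 rose (0.32, adjusted p = 0.0445, a call lost without untreated replicate 3 or 4 or rapamycin replicate 1, 3 or 4). In the list of CD8 T and NK cell genes, 10 of 12 were tested and 2 fell, Gzma (-1.06) and Gzmk (-0.47). The call of Gzmk was lost without untreated replicate 1, 2 or 3 or rapamycin replicate 2 or 4. The mean level of the CD8 T and NK list was 5.52 to 5.60 on the untreated and 5.17 to 5.40 on the rapamycin arrays, which do not overlap. In Atg7+/- cells it was 5.15 to 5.37 and 5.06 or less. The erythroid list (5.95 to 6.18 and 5.72 to 5.94) and the Treg identity list (10.66 to 10.83 and 10.45 to 10.63) did not overlap in Atg7-/- cells either. The B cell list had 1 of 7 tested members lower (Pax5), the macrophage list 2 of 11 (C1qa, C1qb), the dendritic cell list 2 of 9 (Xcr1, Batf3), the neutrophil list 2 of 10 (Cxcr2, Mpo), the erythroid list 1 of 4 (Tfrc, which proliferating T cells also use) and the stromal list 1 of 8 (Pecam1, which T cells also carry). Each of these counts is 1 or 2 genes, and 11.1% of all genes were called lower. Among genes other than receptors, 11.9% were called at levels from 4 to 5 and 20.8% from 5 to 6, in both directions together. The mean levels of most of these lists lay between 4 and 6. Without rapamycin replicate 3, 4 dendritic cell, 3 macrophage, 3 CD8 T and NK and 4 neutrophil genes were lower, whereas no neutrophil gene was lower without untreated replicate 1 or rapamycin replicate 2 or 4. The calls of C1qa, Cxcr2 and Mpo were each lost without 1 or more single arrays, among them rapamycin replicate 2. Mean levels of the dendritic cell list ran from 5.37 to 5.52 without and 4.69 to 5.57 with rapamycin, and those of the macrophage list from 4.80 to 4.99 and 4.44 to 5.06. The part of such cells in the changes of other genes was not tested.

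The genes that rose most among bright, non-overlapping genes included regulators of protein turnover, transcription and fuel use. Klhl24, a substrate adaptor of a cullin ubiquitin ligase, showed 6.95, 7.30, 7.37 and 7.67 on the untreated and 9.01, 9.26, 9.31 and 8.90 on the rapamycin arrays. All rapamycin arrays lay above all untreated ones, and the rise was 1.79 (SE 0.13, 3.47-fold, adjusted p = 7.45e-07 in limma). Crebrf, a repressor of the stress factor CREB3, moved from 6.004, 6.11, 5.86 and 5.69 to 7.10, 7.47, 7.70 and 7.38, a rise of 1.49 (SE 0.11, adjusted p = 7.45e-07). Txnip, an arrestin-like protein that binds thioredoxin and limits glucose uptake, moved from 7.33, 7.09, 7.49 and 7.50 to 8.47, 8.69, 8.98 and 8.54. Its rise of 1.32 (SE 0.16, adjusted p = 3.12e-05) was 2.5-fold, again with no overlap. Etv5, an ETS family transcription factor, gave 6.91, 7.22, 7.13 and 7.45 and 8.24, 8.40, 8.69 and 8.41 (rise 1.26, adjusted p = 3.98e-06). Bckdha, a subunit of the dehydrogenase that breaks down branched-chain amino acids, rose by 1.22, and Ecm1, a secreted matrix protein that activated T cells release, by 1.19. The other 6 of the 12 rose by between 1.16 and 1.30: Trim12c and Trim12a (2 closely related tripartite motif genes that may share probes), Itih5, Zfp984, Ssbp2 and Ubald2. The rule had 30 candidates for a rise and 47 for a fall. On 8 of the 12 rising genes rapamycin replicate 1 was the lowest rapamycin array. All 12 had a positive change in Atg7+/- cells too, and 11 were called there; Trim12c was not (0.42, adjusted p = 0.114).

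Forkhead factors of the FoxO family are restrained by growth signals and bind the core GTAAACA. In the 300 bases around the start site (250 before, 50 after; RefSeq promoters, GRCm38.p6) this core, read on both strands, was in 415 of 12971 tested genes with a promoter entry (3.2%). It was in 2 of 11 of the rising genes, Txnip and Etv5, and in 1 of 12 of the falling ones, Mmp10. For scale, it was in 3 of 33 mitosis genes, 2 of 21 quiescence genes and 0 of 13 autophagy genes that rose. These 2 promoters are shown because they were the only ones with the core among the 11 rising genes with an entry. The core is in capitals. Txnip is read from chr3:96557707-96558006 (plus strand) and Etv5 from chr16:22439521-22439820 (minus strand), 1 of its 2 entries.
Txnip: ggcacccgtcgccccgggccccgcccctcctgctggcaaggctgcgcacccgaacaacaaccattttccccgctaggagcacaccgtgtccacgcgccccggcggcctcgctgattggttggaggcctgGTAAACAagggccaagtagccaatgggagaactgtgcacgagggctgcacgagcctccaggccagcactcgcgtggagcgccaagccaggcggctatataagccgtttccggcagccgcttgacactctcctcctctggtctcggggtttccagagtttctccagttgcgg
Etv5: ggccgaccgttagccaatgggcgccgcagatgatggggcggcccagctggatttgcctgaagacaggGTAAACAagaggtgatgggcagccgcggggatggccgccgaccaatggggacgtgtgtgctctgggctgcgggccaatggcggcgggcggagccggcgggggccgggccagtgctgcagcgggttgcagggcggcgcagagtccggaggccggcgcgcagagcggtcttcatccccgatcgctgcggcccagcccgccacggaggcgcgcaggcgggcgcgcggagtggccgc

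The core begins 121 bases before the start of Txnip and 183 before that of Etv5. The match is a description of the letters; binding was not measured.

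The 3 largest falls were in effector molecules. Gzmb, a cytotoxic protease of activated T cells, gave 8.92, 8.60, 8.64 and 8.78 on the untreated arrays and 4.70, 6.72, 6.49 and 5.33 on the rapamycin arrays. The untreated arrays lay close together (standard deviation 0.149) and the rapamycin arrays spread widely below them (0.958). The fall was 2.92 on the log2 scale (SE 0.30, 7.59-fold, adjusted p = 7.41e-06 in limma). This SE, like the others given here, pools the spread of all 4 groups and does not reflect the wider spread of the rapamycin arrays alone. Il13, a type 2 cytokine, moved from 10.40, 10.36, 10.004 and 9.77 to 6.65, 7.35, 8.33 and 6.76 (change -2.86, SE 0.30, adjusted p = 9.57e-06). Ifng, the type 1 cytokine, moved from 9.47, 9.15, 9.64 and 10.11 to 5.47, 6.53, 8.31 and 6.73 (change -2.83, SE 0.39, adjusted p = 0.000117). For both cytokines rapamycin replicate 3 was the highest rapamycin array and still below every untreated array. S100a4, a calcium-binding protein of effector and memory cells, moved from 10.04, 9.81, 9.83 and 10.12 to 6.73, 7.81, 8.55 and 7.58 (change -2.28, adjusted p = 2.13e-05), and its relative S100a6 changed by -1.67. Glrx, the glutaredoxin that reduces protein thiols, changed by -1.92 and Zbtb32, a BTB zinc finger repressor induced in activated lymphocytes, by -1.61. Zbtb32 kept both groups narrow, with 7.91, 7.73, 7.89 and 7.59 against 6.41, 5.96, 6.22 and 6.08. The chemokines Cxcl3 (-1.81) and Ccl3 (-1.69), the matrix protease Mmp10 (-1.78), pleckstrin (Plek, -1.72) and the histone gene H2ac15 (-2.13, which may share probes with other H2A genes) complete the 12. Rapamycin replicate 1 was the lowest of the rapamycin arrays for 9 of these 12 genes and replicate 3 the highest for 8. In Atg7+/- cells all 12 had a negative change and 11 were called, all but Gzmb.

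**Figure D2:**
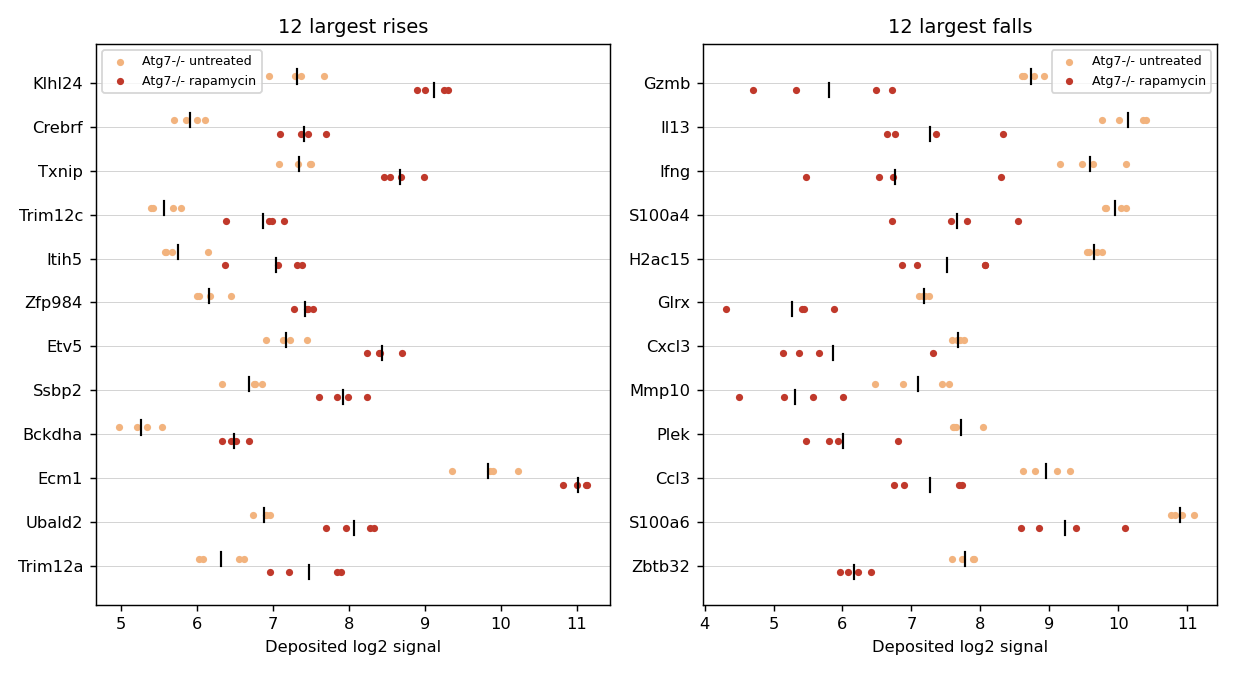
Deposited log2 signal (horizontal axis) on each of the 4 untreated (orange) and 4 rapamycin (red) Atg7-/- arrays for the 12 genes with the largest rise (left) and the 12 with the largest fall (right); black ticks are group means. The groups do not overlap for any of the 24 genes, which the rule required, and the rapamycin arrays of the falling genes spread more widely than the untreated ones for genes such as Gzmb and Cxcl3.

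Of 20 effector cytokine genes tested, 9 fell and 1 rose, against 11.1% and 8.83% of all genes. Their median change was -0.52 against -0.04 for all genes (-0.29 without rapamycin replicate 1), and 6 lay beyond the mark set by the receptor genes. Il5, which drives eosinophils, moved from 6.87, 6.69, 6.21 and 5.77 to 4.18, 3.77, 4.55 and 4.08 (change -2.24, SE 0.24, adjusted p = 1.17e-05). Il17f, of the type 17 family, changed by -1.69 (adjusted p = 0.0142), with rapamycin replicate 3, at 8.53, inside the untreated range of 8.05 to 9.14. The change in Il17f was -1.12 without rapamycin replicate 1, and still called. Its call was lost with only the 8 Atg7-/- arrays in the fit. The type 2 cytokine Il4 changed by -1.44 (adjusted p = 0.000832) and Il3, a haematopoietic growth factor, by -1.35 (adjusted p = 0.0156). Il9, another cytokine of activated T cells, was the member that rose (0.89, adjusted p = 0.0252). The call of Il9 was lost without untreated replicate 1 or 3 or rapamycin replicate 2, 3 or 4. Il10, the anti-inflammatory cytokine, had a change of -0.40 (adjusted p = 0.0603). The Atg7+/- arrays had 13 members lower and 1 higher, against 8.11% and 6.03% of all genes in that genotype.

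Among 12 chemokine ligands, which direct cell traffic, 5 fell and none rose (41.7% called against 20% of all genes, median -0.39). Without rapamycin replicate 3, 8 fell and the median was -0.61. Ccl4, an inflammatory chemokine, moved from 9.02, 8.89, 9.54 and 9.02 to 8.32, 7.58, 8.06 and 7.76 (change -1.19, SE 0.17, adjusted p = 0.000182). Cxcl2 changed by -1.55 and Xcl1 by -1.09, so 4 of the 5 called ligands (with Ccl3) were beyond the receptor mark. Among 19 chemokine and homing receptors 8 fell and 2 rose (52.6% called, median -0.45). Those that fell most guide cells to inflamed tissue: Cxcr6 moved from 8.74, 8.95, 8.75 and 8.52 to 6.67, 7.42, 7.65 and 7.14 (change -1.52, SE 0.17, adjusted p = 1.7e-05), Ccr2 changed by -1.41 and Cxcr3 by -1.19. Ccr8, a receptor of activated Treg cells, went from 11.64, 11.73, 11.61 and 11.65 to 10.79, 10.73, 10.70 and 10.49 (change -0.98, adjusted p = 1.79e-06), just inside the mark. Ccr7, which leads cells to lymph nodes, rose by 0.48 (adjusted p = 0.00741), and Ccr9, the gut-homing receptor, by 0.46, a call lost without untreated replicate 1 or rapamycin replicate 3.

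The list of effector Treg genes had 16 of 28 members lower and none higher (57.1% called against 20% of all genes, median -0.45). Of the 16, 8 lay beyond the receptor mark. Besides Gzmb and the S100 genes these included Klrg1, a marker of terminally differentiated Treg cells, with 7.30, 7.33, 7.01 and 7.25 on the untreated and 4.69, 5.51, 6.63 and 5.63 on the rapamycin arrays (change -1.61, SE 0.26, adjusted p = 0.00044). The galectin Lgals1 changed by -1.41, the inhibitory receptor Havcr2 (Tim-3) by -1.31. The transcription factor Prdm1 (Blimp-1), at -0.90, stayed inside the mark. The broader Treg signature moved both ways, 8 of 29 higher and 7 lower (51.7% called), with a median of -0.01. Without untreated replicate 4, 5 of its members were higher. Socs2, a feedback inhibitor of cytokine signals, rose by 0.88, and Izumo1r (folate receptor 4) went from 9.78, 9.81, 9.78 and 9.43 to 10.49, 10.28, 10.33 and 10.49 (change 0.70, adjusted p = 0.000308). Itgae (CD103, -0.85) and Nrp1 (neuropilin-1, -0.80) fell. The mean level of the effector Treg list was 8.67 to 8.69 on the untreated and 7.56 to 8.31 on the rapamycin arrays.

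Of 24 quiescence and resting T cell genes, 12 rose and 2 fell (58.3% called against 20% of all genes, median 0.42). Il7r, the IL-7 receptor chain of resting and memory T cells, moved from 7.75, 7.84, 7.69 and 7.51 to 8.59, 8.57, 9.05 and 8.44 (rise 0.96, SE 0.16, adjusted p = 0.000588). Klf2, a transcription factor that keeps T cells quiescent and circulating, moved from 6.98, 7.37, 7.11 and 7.28 to 8.08, 7.95, 7.91 and 7.75 (rise 0.74, adjusted p = 0.000777). Ccng2, a cyclin that slows the cell cycle, rose by 0.74 and Bach2, a repressor of effector genes, by 0.70. These 4 stayed inside the receptor mark of 0.995. The schlafen gene Slfn5 fell by 1.02 (adjusted p = 6.24e-05), beyond it. Slfn2 was also called (-0.24), a call lost without untreated replicate 1, 2 or 3 or rapamycin replicate 1, 2 or 3. On the Atg7+/- arrays 6 members rose and 2 fell, against 6.03% and 8.11% of all genes in that genotype.

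Of 27 genes of proximal T cell receptor signalling 14 fell and 1 rose (55.6% called against 20% of all genes, median -0.32). Without untreated replicate 2, 9 fell. Themis, a regulator of the receptor's threshold, moved from 7.24, 7.24, 7.21 and 7.54 to 5.40, 6.19, 6.51 and 5.77 (change -1.34, SE 0.18, adjusted p = 0.000103). The kinase Zap70 moved from 9.42, 9.76, 9.59 and 9.08 to 8.39, 8.73, 8.96 and 8.81 (change -0.74, adjusted p = 0.0019) and the exchange factor Vav1 changed by -0.58. Bcl10, the member that rose (0.28), was not called without untreated replicate 1 or 3 or rapamycin replicate 3 or 4. Genes of the early response to the receptor moved less: 2 of 31 rose and 2 fell (12.9% called, median -0.03). There were 5 that fell without untreated replicate 4 and 4 without rapamycin replicate 3. Cd69, the early activation antigen, rose from 10.96, 11.09, 10.98 and 11.05 to 11.57, 11.44, 11.45 and 11.49 (change 0.47, adjusted p = 0.000326). Nfkbie, an inhibitor of NF-kappaB, changed by -0.85 and Ier3 by -0.88. Egr1 rose by 0.42, a call lost without untreated replicate 1 or 4 or rapamycin replicate 1, 2 or 3. Myc, a transcription factor of growth and proliferation, gave 11.12, 11.08, 11.09 and 10.74 and 11.35, 11.22, 11.09 and 11.25 and was not called (0.22, adjusted p = 0.0989; change 0.13 without untreated replicate 4). Among early genes of Atg7+/- cells 9 fell and 1 rose, against 8.11% and 6.03% of all genes in that genotype.

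**Figure D3:**
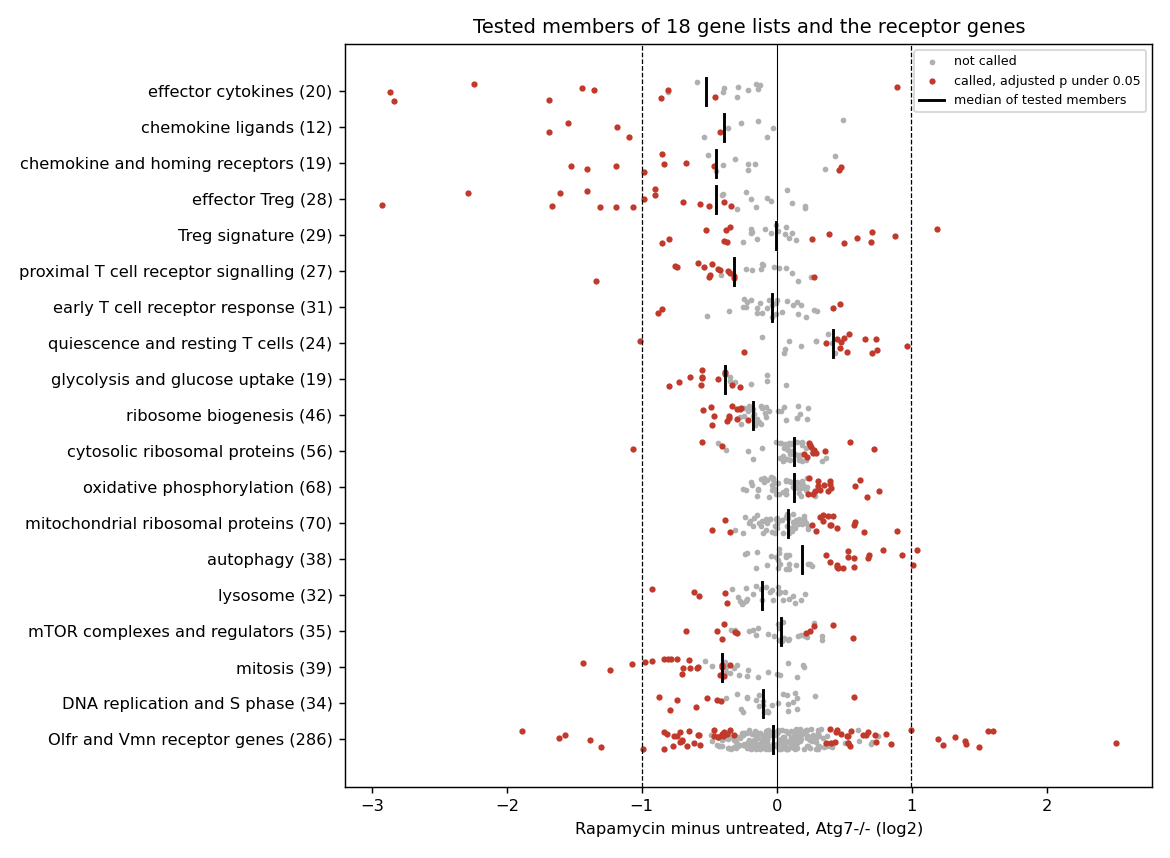
Log2 change with rapamycin in Atg7-/- cells (horizontal axis) for each tested member of 18 gene lists and for the 286 receptor genes (bottom row); the number tested is in brackets, red points were called, black bars are medians and dashed lines are the receptor mark at a change of 0.995 up or down. Effector cytokine, chemokine, homing receptor and effector Treg genes extend beyond the left line, whereas glycolysis, ribosome and respiratory chain genes stay within both lines apart from 1 ribosomal protein gene.

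Of 38 autophagy genes tested in these cells, which lack Atg7, 16 rose and none fell (42.1% called against 20% of all genes). Their median change was 0.19. The initiation complex led: Atg13, its scaffold, moved from 5.85, 6.14, 6.15 and 6.17 to 6.87, 7.16, 7.33 and 7.09 (rise 1.04, SE 0.10, 2.05-fold, adjusted p = 4.61e-06). Ulk2, the kinase, moved from 6.14, 6.31, 6.52 and 5.88 to 7.05, 7.19, 7.37 and 7.25 (rise 1.01, SE 0.14, adjusted p = 9.66e-05). These 2 lay just beyond the receptor mark. Rb1cc1 (FIP200), another subunit, rose by 0.93 and the phosphoinositide-binding Wdr45 by 0.79. Among the substrates of the Atg7 pathway, Map1lc3b (LC3B) rose by 0.68 (adjusted p = 0.0015) and Gabarapl2 by 0.57 (adjusted p = 0.00231). The cargo receptor Sqstm1 (p62) had a change of 0.23 (adjusted p = 0.151). In Atg7+/- cells 10 autophagy genes rose and 1 fell, with a median of 0.10, against 6.03% and 8.11% of all genes in that genotype.

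Of 32 lysosomal genes none rose and 5 fell (15.6%, near the 11.1% of all genes called lower; 8 fell without rapamycin replicate 3). Their median was -0.11, and ran from -0.23 without rapamycin replicate 3 to -0.01 without rapamycin replicate 1. Ctsb, the cysteine protease cathepsin B, moved from 9.14, 9.23, 9.14 and 9.22 to 7.81, 8.37, 8.57 and 8.28 (change -0.92, SE 0.14, adjusted p = 0.000256). Atp6v1a, a subunit of the proton pump, changed by -0.61. Genes of the mTOR complexes and their regulators moved both ways, 5 of 35 higher and 6 lower (31.4% called against 20% of all genes). Leaving out single arrays gave between 1 and 6 higher and between 2 and 7 lower, with 1 higher without untreated replicate 1 or rapamycin replicate 2, and 2 lower without untreated replicate 2 or rapamycin replicate 2. Mapkap1, a subunit of mTOR complex 2, rose from 7.52, 7.59, 7.66 and 7.59 to 8.02, 8.17, 8.26 and 8.17 (change 0.57, adjusted p = 0.000114). Mtor, the kinase, was at 8.05, 7.97, 8.06 and 7.84 without and 8.001, 7.92, 7.74 and 8.02 with the drug (change -0.06, adjusted p = 0.636). The change in Mtor ran from -0.11 (without untreated replicate 4) to -0.0028 (without rapamycin replicate 3), and it was called in neither fit.

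Glycolysis was the metabolic list with the largest share called. Of 19 genes for glucose uptake and glycolysis 12 fell and none rose (63.2% called against 20% of all genes, median -0.38). In Atg7+/- cells 12 also fell (median -0.40), against 8.11% of all genes called lower in that genotype. Hk2, the inducible hexokinase, moved from 8.47, 8.29, 8.29 and 8.44 to 7.51, 7.55, 7.54 and 7.71 (change -0.80, SE 0.08, adjusted p = 4.61e-06). Pkm, pyruvate kinase, moved from 10.65, 10.62, 10.62 and 10.42 to 9.70, 9.87, 10.06 and 10.11 (change -0.65, SE 0.09, adjusted p = 0.000192). The lactate carriers Slc16a1 and Slc16a3 changed by -0.72 and -0.56, and the glucose carrier Slc2a1 by -0.27. None of the 19 reached the receptor mark; the sign was negative for 18 of 19.

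Other biosynthetic lists had smaller shares called, against 20% of all genes. They were 30% in fatty acid synthesis, 25% in sterol synthesis, 30.8% among serine, one-carbon and Atf4 genes and 38.9% among aminoacyl-tRNA synthetases. In ribosome biogenesis 13 of 46 fell and none rose (28.3%, median -0.17), and among genes other than receptors at levels of 9 and above, where the list lies, 30.4% were called in both directions together. Rrn3, which recruits RNA polymerase I, moved from 9.12, 9.16, 9.10 and 9.22 to 8.63, 8.66, 8.72 and 8.64 (change -0.48, adjusted p = 0.00193), and the assembly factor Nle1 changed by -0.55. In fatty acid synthesis 3 of 10 fell: Fasn, the synthase, changed by -0.59, Acsl4 by -0.53 and Scd1 by -0.58, a call lost without untreated replicate 2 or 4 or rapamycin replicate 2. In sterol synthesis 5 of 20 fell, led by Msmo1 (-0.76, or -0.44 without rapamycin replicate 1; not called without untreated replicate 2, 3 or 4) and Hsd17b7 (-0.59). Between 2 and 6 sterol genes fell when 1 array was left out, with 2 without untreated replicate 2 or 3 and 3 without rapamycin replicate 1 or 4. Among genes of serine and one-carbon metabolism and Atf4 targets 7 of 26 fell and 1 rose; 4 fell without untreated replicate 2 or rapamycin replicate 2 or 4. The serine pathway enzymes Psat1 (-0.54), Phgdh (-0.45) and Psph (-0.46) were among those that fell. Among 18 aminoacyl-tRNA synthetases 6 fell and 1 rose, and 2 or 3 fell without untreated replicate 1, 2 or 4 or rapamycin replicate 1 or 2. The synthetase that fell most, Yars, went from 7.57, 7.53, 7.43 and 7.54 to 6.83, 7.04, 6.97 and 7.18 (change -0.51, adjusted p = 0.000621).

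In the mitochondrial respiratory chain and both kinds of ribosome a minority of genes was called, more of them higher than lower. Of 68 respiratory chain and ATP synthase genes 16 rose and none fell (23.5%, against 8.83% of all genes called higher, median 0.13). Among genes other than receptors at levels from 8 to 9, near this list's mean level, 27.4% were called in both directions together. Without rapamycin replicate 3, 10 rose, and without rapamycin replicates 1 and 3, 7 rose and 1 fell. Ndufb11, of complex I, moved from 6.24, 5.90, 6.21 and 5.79 to 6.69, 6.87, 7.02 and 6.61 (rise 0.76, SE 0.12, adjusted p = 0.000362), and Ndufa7 rose by 0.67. The Atg7+/- arrays had 3 of the 68 genes higher and 2 lower, against 6.03% and 8.11% of all genes in that genotype. Of 70 mitochondrial ribosomal protein genes 14 rose and 3 fell (24.3% called against 20% of all genes). At levels from 7 to 8, near this list's mean level, 27.1% of genes other than receptors were called. Without rapamycin replicates 1 and 3, 6 mitochondrial ribosomal protein genes rose and 3 fell. Mrpl27 moved from 4.14, 4.48, 4.65 and 4.59 to 5.15, 5.32, 5.59 and 5.37 (rise 0.89, adjusted p = 0.000248). Of 56 cytosolic ribosomal protein genes 11 rose and 3 fell (25% called against 20% of all genes, median 0.13). At levels of 9 and above, where this list's mean level lies, 30.4% of genes other than receptors were called. The count of 11 fell to 7 without rapamycin replicate 2 and to 4 without replicates 1 and 3. Rps13 moved from 11.04, 10.72, 10.96 and 11.04 to 11.53, 11.54, 11.52 and 11.35 (rise 0.54, adjusted p = 0.000508), while Rps15 changed by -1.06 at a low signal. Ribosomal protein genes have many processed copies that can share probes, so single values are uncertain.

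Of 39 mitosis genes tested in Atg7-/- cells, 20 fell and none rose (51.3% called against 20% of all genes, median -0.40). Without rapamycin replicates 1 and 3, 14 fell and 1 rose. Birc5 (survivin), of the chromosomal passenger complex, moved from 7.04, 7.31, 7.21 and 6.88 to 5.47, 5.60, 5.78 and 5.87 (change -1.43, SE 0.13, 2.7-fold, adjusted p = 2.91e-06). Mki67, the proliferation antigen Ki-67, moved from 7.37, 7.21, 7.53 and 7.62 to 5.34, 6.79, 6.33 and 6.32 (change -1.24, SE 0.24, adjusted p = 0.00172). The kinetochore gene Nuf2 changed by -1.07, and these 3 lay beyond the receptor mark. The spindle motor Kif11 changed by -0.97, the topoisomerase Top2a by -0.92 and the mitotic kinase Cdk1 by -0.84. For Mki67, Nuf2 and Kif11 rapamycin replicate 1 was the lowest array. Mean levels of the list were 5.52 to 5.69 on the untreated and 4.78 to 5.26 on the rapamycin arrays. In Atg7+/- cells 2 members fell and 1 rose, against 8.11% and 6.03% of all genes in that genotype. Levels of the list there were 4.91 to 5.07 without and 4.92 to 5.10 with rapamycin. Of genes for DNA replication and S phase 7 of 34 fell and 1 rose (23.5% called, near the 20% of all genes). Their median was -0.10. The ribonucleotide reductase subunit Rrm2 (-0.87) and thymidine kinase Tk1 (-0.79) fell, and the helicase subunit Mcm7 rose from 6.64, 6.55, 6.43 and 6.39 to 7.02, 7.11, 7.04 and 7.12 (change 0.57, adjusted p = 9.66e-05).

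Many mitotic promoters share 2 short elements, the cell cycle genes homology region (CHR, TTTGAA), which the DREAM complex and B-Myb bind, and the CCAAT box, which NF-Y binds. In the RefSeq promoters of 300 bases, read on both strands, TTTGAA was in 24 of 33 mitosis genes with an entry (72.7%) and in 15.1% of 12971 tested genes. It was in 10 of the 15 that fell (66.7%) and 14 of the 18 that were not called (77.8%), so it was as frequent outside the members that fell. CCAAT was in 25 of 33 (75.8%) against 41.3%. It was in 11 of the 15 that fell (73.3%) and 14 of the 18 that were not called (77.8%). It was also in 8 of 11 of the largest rises (72.7%) and 3 of 12 of the largest falls (25%). For scale, TTTGAA was in 34.9% of 241 receptor genes with an entry, and in 1 of 12 of the largest falls, H2ac15. Promoters of 3 genes that fell and carry both elements are shown, with the elements, on either strand, in capitals. Nuf2, which also fell, has an entry with neither element. The 3 shown are Mki67 from chr7:135716330-135716629 (minus strand), Kif11 from chr19:37376132-37376431 (plus strand) and Top2a from chr11:99024140-99024439 (minus strand), all GRCm38.p6.
Mki67: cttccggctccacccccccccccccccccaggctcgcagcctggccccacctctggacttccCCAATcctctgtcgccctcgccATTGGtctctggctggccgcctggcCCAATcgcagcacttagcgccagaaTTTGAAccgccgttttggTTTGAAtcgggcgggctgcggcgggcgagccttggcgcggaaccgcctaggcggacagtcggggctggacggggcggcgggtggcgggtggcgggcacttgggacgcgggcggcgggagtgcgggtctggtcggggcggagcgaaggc
Kif11: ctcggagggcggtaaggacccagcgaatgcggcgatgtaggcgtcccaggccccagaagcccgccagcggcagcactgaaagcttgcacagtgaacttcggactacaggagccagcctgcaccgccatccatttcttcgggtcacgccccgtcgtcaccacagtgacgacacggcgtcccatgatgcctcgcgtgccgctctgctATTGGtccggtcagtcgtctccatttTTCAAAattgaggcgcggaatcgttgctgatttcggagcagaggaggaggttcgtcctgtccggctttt
Top2a: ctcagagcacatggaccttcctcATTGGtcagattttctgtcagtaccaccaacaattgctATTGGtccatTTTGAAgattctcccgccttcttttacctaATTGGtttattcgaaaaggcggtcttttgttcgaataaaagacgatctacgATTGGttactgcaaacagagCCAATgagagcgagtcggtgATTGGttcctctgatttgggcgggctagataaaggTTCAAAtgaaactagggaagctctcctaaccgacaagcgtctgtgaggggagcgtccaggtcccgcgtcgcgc

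In Mki67 the CHR stands 116 and 98 bases before the start, in Kif11 19 bases before it on the other strand (as TTCAAA), and in Top2a 179 bases before it and, on the other strand, 23 bases before it. A CCAAT box, read on either strand, lies upstream of the CHR nearest to the start in all 3.

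**Figure D4:**
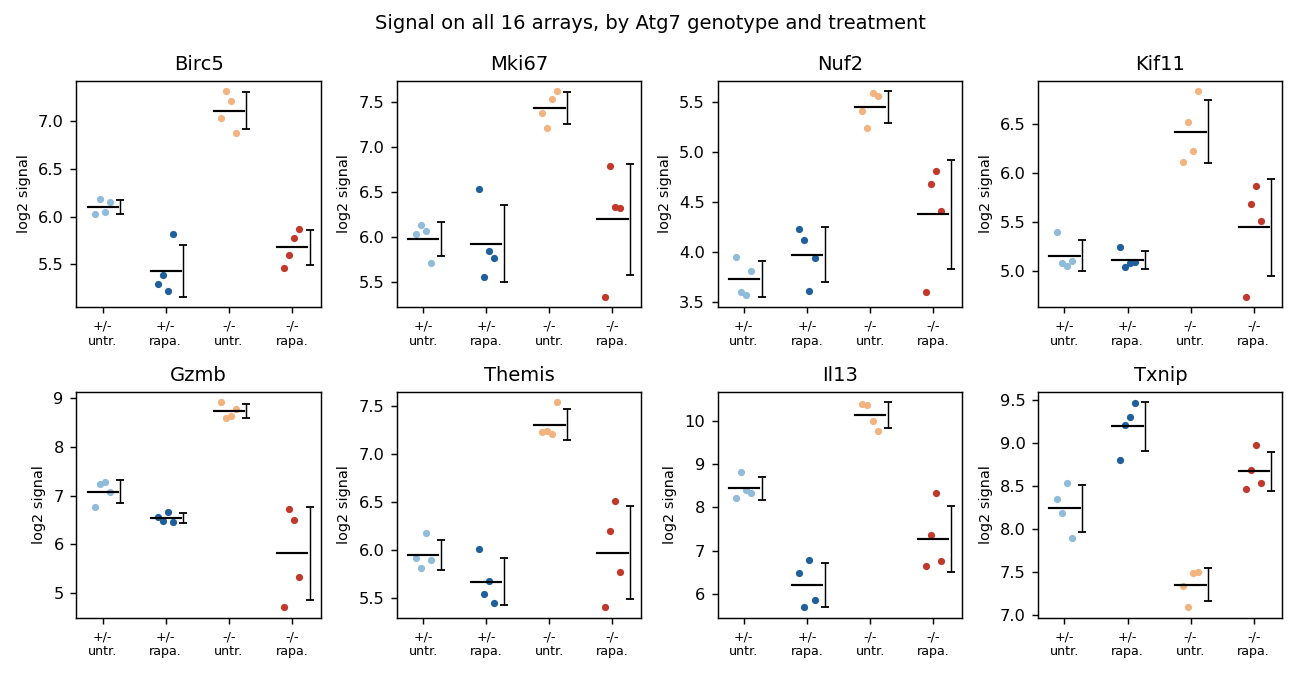
Deposited log2 signal of 8 genes (vertical axes, each with its own range) on all 16 arrays in 4 groups by Atg7 genotype and treatment; points are arrays, black bars are means and error bars are SD over 4 arrays. The mitotic genes in the upper row had their highest mean in untreated Atg7-/- cells, as did Gzmb, Themis and Il13. For Mki67 it was 7.43 against 5.98 in untreated Atg7+/- cells. Birc5, Il13 and Txnip were among the genes called in both genotypes.

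Stress lists changed little or in part. Shares called were 33.3% in the endoplasmic reticulum stress list, 35% among oxidative stress genes and 32% among interferon-stimulated genes, against 20% of all genes. None of 21 heat-shock chaperone genes was called in limma (1 had groups that did not overlap), and the 2 with the smallest p were Hspe1 (0.25, adjusted p = 0.0868) and Hspa4l (-0.33, adjusted p = 0.074; change -0.19 without rapamycin replicate 1). In the endoplasmic reticulum stress list 7 of 24 fell and 1 rose; 4 fell without untreated replicate 3 or 4 or rapamycin replicate 2. The chaperone gene that rose, Dnajb9 (ERdj4), moved from 8.43, 8.21, 8.35 and 7.62 to 9.13, 8.80, 9.56 and 8.94 (rise 0.96, adjusted p = 0.000733), while calreticulin (Calr) went from 10.50, 10.47, 10.48 and 10.47 to 10.11, 10.16, 10.04 and 10.05, a change of -0.39. Of oxidative stress genes and Nrf2 targets 6 of 20 fell and 1 rose, and 3 fell without rapamycin replicate 1, 2 or 4 or untreated replicate 1. Srxn1 (sulfiredoxin) moved from 7.10, 7.30, 6.96 and 6.94 to 6.29, 6.31, 6.32 and 6.09 (change -0.82, SE 0.09, adjusted p = 1.94e-05). Hmox1, haem oxygenase, changed by -0.97, a call lost without untreated replicate 1 or 4 or rapamycin replicate 1, 2 or 4. Of interferon-stimulated genes 7 of 25 fell and 1 rose, and 4 fell without rapamycin replicate 1 or untreated replicate 3. Ifit3 moved from 7.13, 7.05, 7.01 and 7.13 to 6.64, 6.54, 5.99 and 6.58 (change -0.64, adjusted p = 0.00163), and the transcription factor Irf1 was the member that rose (0.60, adjusted p = 0.00138). Of 37 proteasome genes 6 fell and 1 rose (18.9% called), a share near that of all genes; Psmd3 changed by -0.54.

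MicroRNA genes held some of the largest changes. Of 262 tested, 43 rose and 29 fell (27.5% called against 20% of all genes and 22.0% of receptor genes). Beyond the receptor mark lay 12 rises and 6 falls among these 262. The 286 receptor genes tested had 10 rises and 5 falls beyond it, and 0.913% of all genes lay there. The probe sets are named for the microRNA gene and are not shown to measure the mature form. Mir210, known as a microRNA induced by low oxygen, moved from 6.04, 6.34, 6.24 and 5.64 to 8.31, 8.04, 7.92 and 7.68 (rise 1.92, SE 0.16, adjusted p = 1.79e-06). Mir188 moved from 4.27, 3.85, 4.57 and 4.10 to 6.44, 6.33, 5.87 and 5.93 (rise 1.95, SE 0.27, adjusted p = 0.000113). Mir297a-4 moved from 5.72, 6.16, 6.44 and 5.99 to 3.51, 3.36, 2.72 and 3.67 (change -2.76, adjusted p = 7.45e-07), and Mir466h changed by -1.57; both belong to families of repeated copies that can share probes. All 4 were called in the same direction in Atg7+/- cells, with changes of 1.75, 1.75, -1.93 and -1.60. The mature sequences of the 2 that rose (RefSeq, GRCm38.p6; chromosome 7 for Mir210 and X for Mir188) are shown to tell the arms apart, with the seed, bases 2 to 8, in capitals; no 2 of the 4 share a seed.
mmu-miR-210-3p: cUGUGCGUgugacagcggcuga
mmu-miR-210-5p: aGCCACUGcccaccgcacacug
mmu-miR-188-3p: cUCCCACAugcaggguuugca
mmu-miR-188-5p: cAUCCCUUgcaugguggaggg

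The effect of rapamycin was then compared between genotypes, which asks whether the response depends on Atg7. No gene differed at an adjusted p under 0.05 in limma (0% of 16760). The smallest adjusted p was 0.139, and 1052 genes (6.28%) had an unadjusted p under 0.05. In Atg7+/- cells 2370 genes were called (14.1%; 6.03% higher, 8.11% lower). Of these, 1519 were called in the same direction in Atg7-/- cells, 64.1% of the Atg7+/- calls and 45.4% of the Atg7-/- calls, and none in the opposite direction. The sign was shared for 3221 of the 3347 genes called in Atg7-/- cells (96.2%). Of the 153 genes beyond the receptor mark, 150 had the same sign and 123 were called in Atg7+/- cells in the same direction.

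Gzmb had the smallest unadjusted p for the difference. It moved from 6.76, 7.23, 7.27 and 7.06 to 6.57, 6.47, 6.66 and 6.45 in Atg7+/- cells (change -0.55, adjusted p = 0.24) and by -2.92 in Atg7-/- cells, a difference of -2.38 (unadjusted p = 2.64e-05, adjusted p = 0.139 in limma). Without rapamycin replicate 2 of the Atg7-/- group it was the single gene called (adjusted p = 0.0242). Without replicates 1 and 3 of that group, 4 genes were called: Gzmb, Morrbid (a long noncoding RNA that controls Bcl2l11), the receptor gene Olfr713 and Gm4951, the last 3 named after their values were seen. The other genes that the rule named by smallest p were Trappc6a (difference 0.70), Nemp1 (0.69), Ipcef1 (0.59), H2ac10 (-0.88) and Lyrm2 (0.64), with adjusted p between 0.139 and 0.31. Nemp1, a nuclear envelope protein, moved from 5.85, 6.04, 5.93 and 5.79 to 6.90, 6.68, 6.78 and 6.71 in Atg7-/- cells and from 6.07, 6.08, 6.02 and 6.32 to 6.32, 6.18, 6.36 and 6.34 in Atg7+/- cells.

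Mitosis genes were the list with the largest share of small p-values for the difference. The median difference between genotypes over the 39 genes was -0.48, and 18 of them (46.2%) had an unadjusted p under 0.05 against 6.28% of all genes, but none passed the adjusted threshold. Birc5 had differences of -1.43 in Atg7-/- and -0.67 in Atg7+/- cells (adjusted p of the difference = 0.349), and Mki67 -1.24 and -0.06 (adjusted p = 0.533). The untreated Atg7-/- arrays enter this difference, and they were higher than untreated Atg7+/- arrays for these genes: 7.11 against 6.10 for Birc5 and 5.45 against 3.73 for Nuf2, as group means. With rapamycin the means were 5.68 and 5.43 for Birc5 and 4.38 and 3.98 for Nuf2. In Atg7+/- cells both means of Nuf2 were close to 3.549, the bound under which genes were too dim to test. Whether low signal limited a fall in that genotype was not tested.

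**Figure D5:**
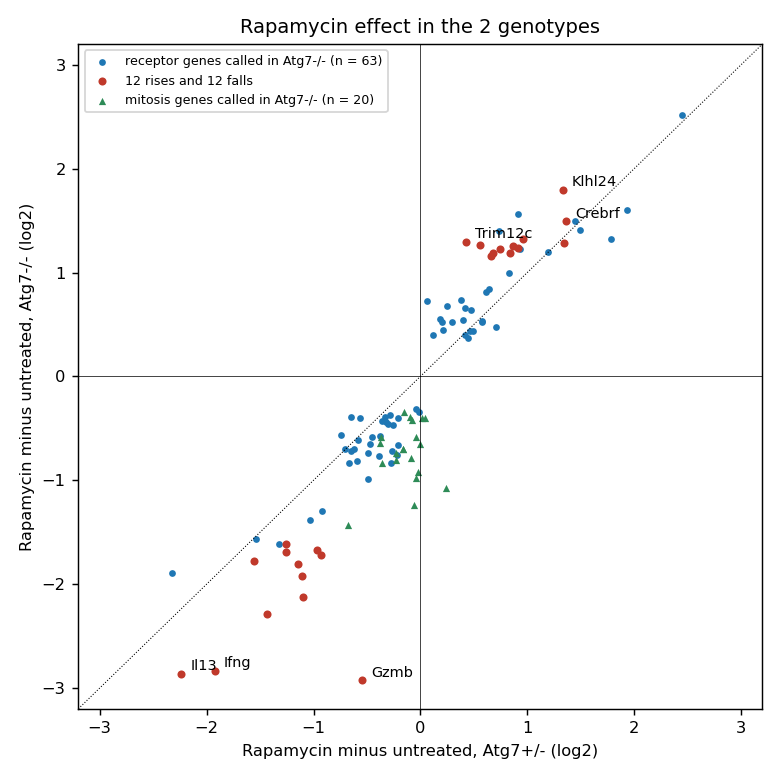
Log2 change with rapamycin in Atg7-/- cells (vertical axis) against that in Atg7+/- cells (horizontal axis), from separate arrays, for the 63 called receptor genes (blue), the 12 rises and 12 falls (red) and the 20 called mitosis genes (green triangles); the dotted line marks equal changes. The genes were chosen by their change in Atg7-/- cells; the 12 falls all lie below the line, Gzmb (-2.92 against -0.55) farthest, and 18 of the 20 mitosis genes were not called in Atg7+/- cells.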

How the data were processed

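Arrays of 16 Treg samples, 4 in each of 4 groups, were analysed from the table of log2 values per probe set that the authors deposited; the submitters' processing notes name RMA and Partek 6.6, without order or settings. The table does not state its log base, which was taken as 2, and neither the genome build nor the annotation version is stated. Probe sets were named through GEO's platform annotation, and for 1082 genes with several the brightest was used. Genes whose highest group mean stayed under 3.549 (the 30th percentile of all values) were left out. One linear model of 4 groups was fitted with limma 3.58.1 in R 4.3.3 (lmFit, eBayes; 12 residual and 5.64 prior degrees of freedom) to all 16760 genes, with Benjamini-Hochberg adjustment over all of them at 0.05, and was tested on simulated data. The number of arrays and, for dim genes, the low signal limit precision. Gene lists, members and tests were chosen with earlier results of these data known. Named genes were the 12 rises and 12 falls of largest size among called, non-overlapping genes beyond the receptor genes' 95th percentiles of change (0.995) and of signal (6.48), leaving out predicted, antigen receptor, small RNA and receptor genes. Added to these were the 2 largest called rises and falls among receptor genes and among microRNA genes, up to 4 called members per direction in each pathway list, up to 3 per cell type list, the 6 smallest p for the genotype difference, and Atg7, Foxp3, Myc and Mtor. Named outside this rule, after their values were seen, were Il3, Il4, Il10, Il2ra, Tnfrsf18, Lgals1, Havcr2, Prdm1, Cd40lg, Actn1, Lef1, Map1lc3b, Gabarapl2, Sqstm1, Slc2a1, Cdk1 and Top2a, and the receptor genes nearest the mark. Alternatives changed the fit, the weights, the scaling, the filter, the row per gene and the arrays. Promoter and microRNA sequences are RefSeq's.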

Additional observations from a re-analysis of the deposited data

Results flagged for a closer look

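In 366 sets of 4 arrays (1 gene in 1 group of Atg7-/- arrays), the array farthest out was compared with the rest by its gap to the nearest of them as a share of the group's range. The gap passed Dixon's critical value for 4 samples in 23 sets (6.28%); chance gives about 1 in 20. Values are log2 signals and were not corrected for this.

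Among the untreated arrays the sets were these. Atg13 was 5.846 on untreated replicate 1 against 6.138 to 6.169 on the other 3 arrays. Ctla4 was 10.81 on untreated replicate 1 against 10.77 to 10.77 on the other 3 arrays. Cxcr2 was 5.137 on untreated replicate 1 against 4.34 to 4.426 on the other 3 arrays. Itih5 was 6.146 on untreated replicate 2 against 5.583 to 5.67 on the other 3 arrays. Izumo1r was 9.428 on untreated replicate 4 against 9.784 to 9.811 on the other 3 arrays. Mrpl22 was 7.314 on untreated replicate 4 against 7.453 to 7.469 on the other 3 arrays. Mrpl54 was 8.099 on untreated replicate 3 against 8.326 to 8.334 on the other 3 arrays. Myc was 10.74 on untreated replicate 4 against 11.08 to 11.12 on the other 3 arrays. Pkm was 10.42 on untreated replicate 4 against 10.62 to 10.65 on the other 3 arrays. Plek was 8.034 on untreated replicate 4 against 7.6 to 7.648 on the other 3 arrays. Psmd3 was 8.194 on untreated replicate 4 against 8.482 to 8.521 on the other 3 arrays. Psme2 was 7.731 on untreated replicate 1 against 7.5 to 7.524 on the other 3 arrays. Slc16a3 was 5.677 on untreated replicate 2 against 5.929 to 5.958 on the other 3 arrays. Themis was 7.544 on untreated replicate 4 against 7.214 to 7.24 on the other 3 arrays.

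Among the rapamycin arrays, 4 of the 9 sets have replicate 3 as the array set apart. C1qa was 4.774 on rapamycin replicate 2 against 5.185 to 5.233 on the other 3 arrays. Cebpg was 8.254 on rapamycin replicate 1 against 8.122 to 8.127 on the other 3 arrays. Ctla4 was 10.03 on rapamycin replicate 1 against 10.51 to 10.55 on the other 3 arrays. Ifit3 was 5.992 on rapamycin replicate 3 against 6.538 to 6.64 on the other 3 arrays. Lyrm2 was 8.701 on rapamycin replicate 3 against 8.447 to 8.471 on the other 3 arrays. Mrpl47 was 8.158 on rapamycin replicate 3 against 7.55 to 7.622 on the other 3 arrays. Ndufb3 was 7.857 on rapamycin replicate 3 against 7.347 to 7.414 on the other 3 arrays. Rps13 was 11.35 on rapamycin replicate 4 against 11.52 to 11.54 on the other 3 arrays. Srxn1 was 6.089 on rapamycin replicate 4 against 6.285 to 6.317 on the other 3 arrays.

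Of the probe sets without a single gene symbol, which enter no comparison of genes, 15.1% were called for rapamycin in Atg7-/- cells when all probe sets were tested together (limma, adjusted p under 0.05). They cannot be named from the annotation used here.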

How the results depend on the processing

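Of 175 named genes called with rapamycin, 133 kept their call in every alternative in which they were tested. The other 42 lost it in at least 1 and none reversed. There were 29 alternatives, and some dim genes, such as Batf3, Gzma, Nuf2 and Olfr310, were tested in only 28. With all 30582 probe sets above the bound tested, named or not, 2372 probe sets (not genes) were higher. The count of genes lower was 1225 with only the 8 Atg7-/- arrays in the fit. Receptor centring called 1129 genes higher and 2677 lower, and median centring 1358 and 1374. Leaving out 1 array gave 1093 to 1522 genes higher, 1400 to 1995 lower and 17.65% to 23.10% of receptor genes called. With no filter on dim genes 8.75% of receptor genes and 14.8% of all genes were called. The genotype difference had 0 to 1 genes called with 1 array left out (1 without Atg7-/- rapamycin replicate 2). It had 4 without Atg7-/- rapamycin replicates 1 and 3, an alternative chosen after seeing the data. Atg7, not called, ranged from -0.01031 (without untreated replicate 4, a reversed sign) to 0.254 (without rapamycin replicate 3) with 1 array left out. The cause of these shifts was not tested.

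Deviations of same-numbered Atg7-/- samples from their group means correlated weakly (0.114, 0.029, -0.068 and -0.079). Whether the numbers pair samples cannot be settled from these correlations, and the labels do not say. With the replicate block 1522 genes were higher and 1969 lower.

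Among lists, the count of higher cytosolic ribosomal protein genes moved most with the settings, between 4 (8 arrays) and 21 (eBayes with trend and robust). Lower ribosome biogenesis genes numbered 6 with 8 arrays and 20 with receptor centring. Low signal limits the receptor genes and other dim genes.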
